A study of Homo sapiens with 30 samples.

Results

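The interleukin-1 (IL-1) family and its receptors were examined in BEAS-2B cells after a dose of intact birch pollen. The members were 10 genes, found by gene name among the 43972 names on the array: IL1A, IL1B, IL1RN, IL18, IL36G, IL36B, IL1R1, IL1R2, IL1RAP and IL1RL1. They were measured by 15 probes, of which 9 probes of 6 genes passed the filter on dim probes and were tested, among 24517 gene names with a tested probe.

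BEAS-2B is an immortalized cell line from human bronchial epithelium, here grown on membrane inserts at the air-liquid interface. The pollen groups received 10 mg of birch pollen in a Pollen Sedimentation Chamber, and the air groups were mock exposures in which a mesh over the cells kept the pollen out. Cells were taken at 10 min and 55 min, at 2h25 min and 6h50 min, or after 24 h, with 3 arrays in each of the 10 groups and 30 arrays in all. All groups were of the same line and went through the same chamber procedure, and air at the same time was the control for pollen. The methods describe repetitions on different days, but the labels do not tie an array to a day, so that p-values measure the spread between these arrays.

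IL-1 alpha and IL-1 beta are early signals of inflammation. Both bind the receptor IL1R1, which recruits the accessory protein IL1RAP and signals through MYD88, IRAK kinases and NF-kB to genes of chemokines and cytokines. IL1RN encodes an antagonist that occupies the receptor without signalling, and IL1R2 encodes a decoy receptor. IL-1 beta and IL-18 are made as inactive precursors that caspase-1 cleaves, whereas the IL-1 alpha precursor is active as such, and epithelial cells are known to hold it and to release it on damage. A transcript level says nothing of this release.

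Values are log2 of the spot intensity minus the 75th percentile of the same array, so that 0 is a probe brighter than most. A probe is described as detected on an array where its signal was well above background by the scanner software. Levels were compared between arrays and never between probes. Pollen was compared with air at each time with limma across 32099 probes, and a gene counted as called where it differed by 1.1-fold or more and its p, adjusted after Benjamini and Hochberg, was below 0.05. Adjusted p-values below are from this fit. Between 44.7% and 59.3% of probes were detected per array, and no spot was saturated. The array of pollen 55 min replicate 1 was of another design with fewer probes and on a slide of its own. Time and slide largely cannot be told apart, because all arrays of 10 min shared a slide with air 55 min replicate 1 alone, and those of 6h50 min had a slide to themselves. Of 9 epithelial markers, 8 were detected on all 30 arrays and TP63 on 21. Markers of other cells were detected in part. Of 4 mast cell markers TPSAB1 and FCER1A were detected on none, KIT on 1 and CPA3 on 14, and of 4 endothelial markers PECAM1 was detected on none, KDR on 5, VWF on 28 and CDH5 on 30. Of the leukocyte markers, PTPRC, CD14 and CSF1R were detected on all 30, ITGAM on 28 and CD3E on 17. Of 5 fibroblast markers COL1A1, DCN and PDGFRB were detected on all 30, COL1A2 on 27 and LUM on none.

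The probes are 60 bases long, and their positions below are those of the files, on hg19. The first 30 bases are printed for both IL-1 cytokines and for both tested probes of IL1RAP, since the results turn on which transcript was read. No base is marked, and all are in lower case.
IL1A probe, chr2:113532362-113532421, minus strand: ttattattcttcataacaattttaggagga
IL1B probe, chr2:113587429-113587488, minus strand: ggaatcaattcaatttggactggtgtgctc
IL1RAP probe of the full-length transcript, chr3:190368968-190369027, plus strand: aattaatggttttaaatatatgctataggg
IL1RAP probe of the soluble form's transcript, chr3:190347694-190347753, plus strand: aaagattgcatcatctgacctaagactttc
Of the 10 genes, 8 lie on chromosome 2. The ligands IL1A, IL1B, IL36G, IL36B and IL1RN follow each other between the probes of IL1A and IL1RN (chr2:113891531-113891590), and the receptors IL1R2, IL1R1 and IL1RL1 lie between the probes of IL1R2 (chr2:102632505-102636150) and IL1RL1 (chr2:102959759-102959818). IL18 is on chromosome 11 and IL1RAP on chromosome 3.

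Detection separated the members. IL1A, IL1B, IL18, IL1R1 and IL1RAP were detected on all 30 arrays by at least 1 probe, and IL1RN on 29. The probes of IL36G and IL36B, agonists of the IL-36 receptor that epithelia make, were detected on 0 of 30 arrays. The probes of IL1RL1, the receptor of IL-33, were likewise detected on none. The IL1R2 probe was detected on 1 of 30 arrays, air 55 min replicate 1. For these 4 genes no comparison was made, in either exposure and at any time, because their signal was near background throughout.

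Without the replicate numbers as a block, no member was called between pollen and air at any of the 5 times. The numbers were taken as paired at 10 min, 2h25 min and 24 h only, but the block held same-numbered arrays together at all 5 times. With it, IL1B was called at 2h25 min. In the fit without the block, 0% of the 32099 probes were called at 10 min, 0.00312% at 55 min, 0.0343% at 2h25 min, 0.0436% at 6h50 min and 0.00312% at 24 h. At an unadjusted p under 0.05 the members were IL1A and IL1B at 55 min, IL1A, IL1B and IL1RAP at 2h25 min, IL1B at 6h50 min and IL18 at 24 h, the last lower in pollen, and none at 10 min. Among all probes, 587 of 32099 at 10 min, 1630 at 55 min, 957 at 2h25 min, 2388 at 6h50 min and 1158 at 24 h had such a p. The counts of calls among all probes moved with the settings, from 0 to 1 at 10 min, 0 to 231 at 55 min, 0 to 44 at 2h25 min, 0 to 530 at 6h50 min and 0 to 107 at 24 h. At 10 min, 6h50 min and 24 h the members called numbered 0 at every setting run. At 6h50 min the count of 14 probes became 508 without air replicate 3, and 0 without air replicate 1.

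IL1B encodes IL-1 beta. At 10 min it measured -2.94, -3.09 and -2.80 in air, and -3.24, -3.02 and -3.01 in pollen. The groups overlapped. At 55 min the air arrays were at -3.12, -2.52 and -2.05, and the pollen arrays at -2.30, -1.49 and -1.56. All 3 pollen arrays were above the air array of the same number, but air replicate 3 was above pollen replicate 1. At 2h25 min air was at -2.85, -2.71 and -2.68, and pollen at -1.48, -1.15 and -2.05. Every pollen array was above every air array, with replicate 3 the lowest of the pollen arrays. At 6h50 min air was at -2.73, -2.64 and -2.81, and pollen at -2.09, -2.06 and -2.02. The groups were again apart, and both were tight. At 24 h air was at -3.70, -3.84 and -4.09, and pollen at -3.15, -3.46 and -3.73. Each pollen array was above its own-numbered air array, with overlap between the groups, and the 3 air arrays were below every air array of the earlier times.

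**Figure D1:**
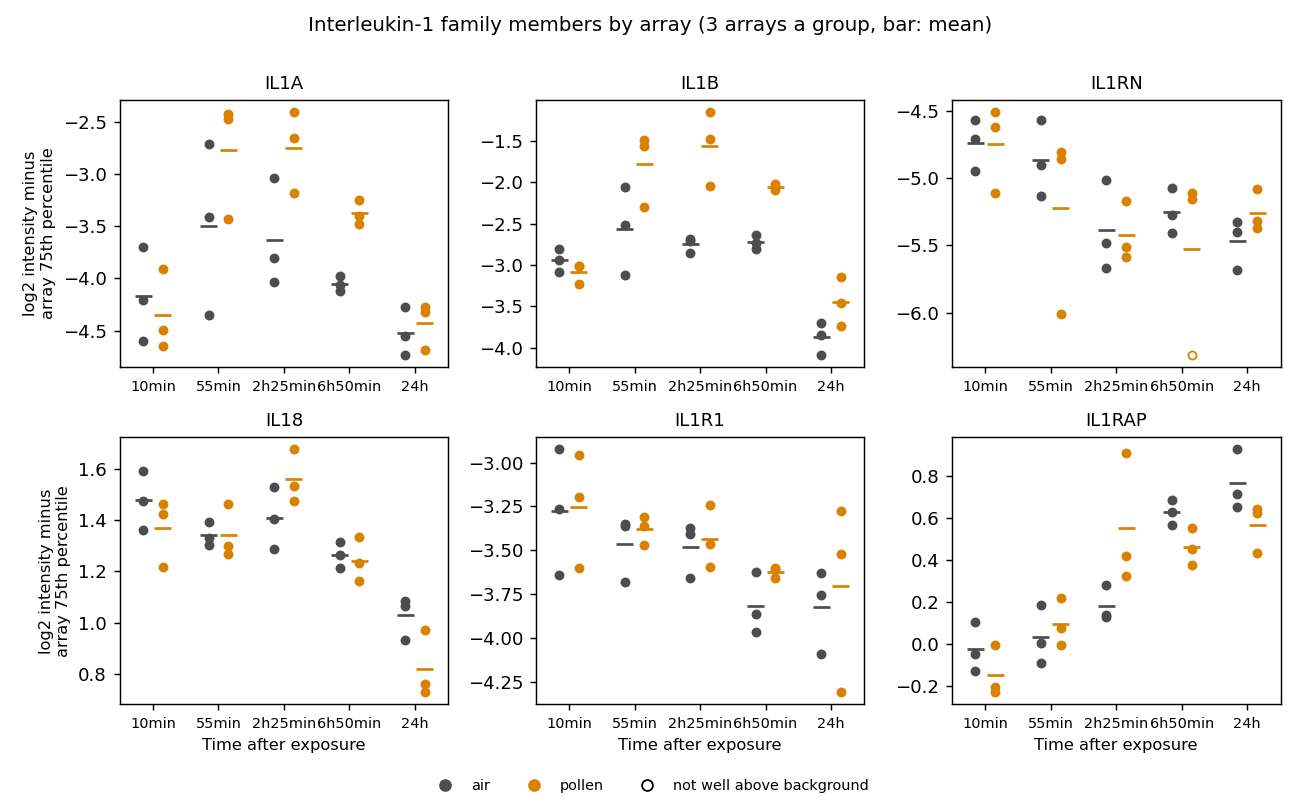
Log2 intensity minus the array's 75th percentile for the 6 tested members, with 1 point per array, 3 arrays per group and a bar at the group mean, for air and pollen at each time after exposure. IL1B in pollen lies between -2.05 and -1.15 at 2h25 min, above all 3 air arrays, whereas IL18 overlaps between the exposures at every time.

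The log2 difference of IL1B, pollen minus air, was -0.14 ± 0.23 (SE) at 10 min, 0.78 at 55 min, 1.19 at 2h25 min, 0.67 at 6h50 min and 0.43 at 24 h, with the same SE and n = 3 per group. The difference at 2h25 min was 2.28-fold, with a 95% interval of 0.71 to 1.68 on the log2 scale, an unadjusted p of 4.08e-05 in the limma fit and an adjusted p of 0.0727. It missed the threshold. A block for the replicate number also paired arrays at 55 min and 6h50 min, where the numbers were not taken as paired. With that block the same difference of 1.19 had an adjusted p of 0.00957 in limma and passed, as did 44 of all 32099 probes. Within the slide that held replicates 1 and 2 the difference was 1.47, and within the slide of replicate 3 it was 0.64. Without pollen 2h25 min replicate 3 it was 1.44, with an adjusted p of 0.0209. At 55 min the unadjusted limma p was 0.00299 and the adjusted p 0.920, and at 6h50 min they were 0.00885 and 0.366.

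IL1A encodes IL-1 alpha. At 10 min it measured -3.70, -4.20 and -4.60 in air and -3.91, -4.65 and -4.49 in pollen. At 55 min air was at -4.35, -3.42 and -2.72, and pollen at -3.43, -2.47 and -2.42. The spread among the air arrays at 55 min was the widest of the gene's 10 groups (SD 0.82). At 2h25 min air was at -3.04, -4.04 and -3.81, and pollen at -2.41, -2.66 and -3.19. Here the lowest pollen array was below the highest air array, while each pollen array was above the air array of its number. At 6h50 min air was at -3.98, -4.12 and -4.06, and pollen at -3.25, -3.48 and -3.40, with no overlap. At 24 h air was at -4.55, -4.27 and -4.73, and pollen at -4.32, -4.28 and -4.69, and the exposures overlapped.

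The log2 difference of IL1A was -0.18 ± 0.34 (SE, n = 3 per group) at 10 min, 0.72 at 55 min, 0.88 at 2h25 min, 0.68 at 6h50 min and 0.09 at 24 h. As folds, the 3 middle times were 1.65, 1.84 and 1.60. Their adjusted p-values from limma were 0.920, 1.00 and 0.703. At 55 min the differences of both genes depended on which arrays were used. Without air 55 min replicate 1 they were 0.29 for IL1A and 0.50 for IL1B, without air 55 min replicate 3 1.11 and 1.04, and without pollen 55 min replicate 1 1.05 and 1.04, none of them called. On the slide that held replicates 2 and 3 of both exposures they were 0.62 and 0.76. Array weights gave pollen 55 min replicate 1 a weight of 0.117. The highest weights of that time were 6.32 for air replicate 2 and 3.34 for pollen replicate 2. The weighted differences thus rested mainly on the arrays of replicate 2. With these weights both genes passed the test along with 231 of all 32099 probes. IL1A was at 0.93 (adjusted p = 0.0456, limma) and IL1B at 1.00 (adjusted p = 0.00303, limma).

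**Figure D2:**
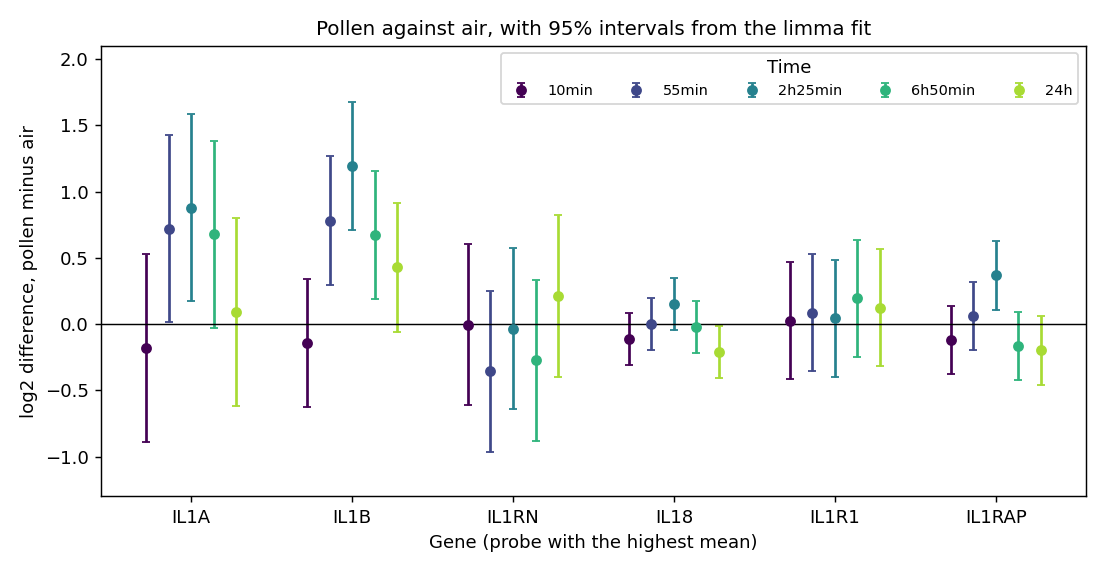
Log2 difference, pollen minus air, of the 6 tested members at each time, with points for the limma estimate (3 arrays per group) and bars for its 95% interval. IL1B at 2h25 min is highest at 1.19, and the intervals of IL1RN and IL1R1 include 0 at all 5 times.

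Pollen lay above air on every array for IL1B at 2h25 min and 6h50 min, for IL1A at 6h50 min and for the full-length probe of IL1RAP at 2h25 min. Among all probes measured on the 6 arrays, 2.85% at 2h25 min and 6.51% at 6h50 min did so. Of the 6 members this was 2 at 2h25 min and 2 at 6h50 min.

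Over time within one exposure, IL1A and IL1B in pollen were highest at 55 min and 2h25 min. Against 10 min, IL1A in pollen was higher by 1.58 at 55 min, 1.60 at 2h25 min and 0.97 at 6h50 min on the log2 scale, and lay at -0.08 at 24 h. IL1B in pollen was higher by 1.30, 1.53 and 1.03 at those times, and lay at -0.36 at 24 h. In air the same contrasts were 0.67, 0.54, 0.12 and -0.35 for IL1A, and 0.38, 0.19, 0.22 and -0.93 for IL1B. Air itself was thus not level over the course, and both genes were lowest there at 24 h. The F test over the 5 times passed in pollen for IL1A (adjusted p = 0.000230, limma) and IL1B (adjusted p = 2.43e-06, limma). In air it passed for IL1B (adjusted p = 0.000441, limma) and not for IL1A (adjusted p = 0.0642, limma). Most probes passed these tests, 61.9% in air and 60.7% in pollen, and 3 of 6 members did in air and 4 of 6 in pollen, the others besides these being IL18 and IL1RAP in both. These counts take the brighter probe of a gene. The dimmer probes of IL1RN (adjusted p = 0.000453 in air and 0.00433 in pollen, limma) and of IL1R1 (0.0160 and 0.00445) passed as well, where the brighter ones did not. Whether the effect of pollen changed over the 5 times was tested in its own F test, which called 0.00312% of probes and 0 members. The smallest p among them was that of IL1B, unadjusted 0.00883 and adjusted 1.00 in limma.

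The 250 bases before the transcription start of both cytokine genes are shown because the genes had like profiles. They are RefSeq sequences on GRCh38.p14, 5′ to 3′ on the gene's strand, the minus strand. They were searched on both strands for the AP-1 motif TGANTCA, the cyclic AMP element TGACGTCA and the box motif TATAAA, and no matches overlapped in these windows. A loose NF-kB pattern was searched too, made of 3 G, any 5 bases and 2 C. Capitals mark each match.
IL1A, chr2:112784494-112784743: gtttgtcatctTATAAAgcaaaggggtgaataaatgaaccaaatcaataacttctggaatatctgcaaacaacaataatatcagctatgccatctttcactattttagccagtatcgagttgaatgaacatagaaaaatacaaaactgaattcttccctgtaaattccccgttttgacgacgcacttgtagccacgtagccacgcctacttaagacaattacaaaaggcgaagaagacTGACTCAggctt
IL1B, chr2:112836780-112837029: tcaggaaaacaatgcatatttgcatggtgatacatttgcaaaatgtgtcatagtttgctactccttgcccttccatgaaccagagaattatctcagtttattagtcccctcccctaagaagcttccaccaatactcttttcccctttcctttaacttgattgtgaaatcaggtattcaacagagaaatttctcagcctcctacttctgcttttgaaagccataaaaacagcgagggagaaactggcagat
In IL1A, TGACTCA began 12 bases and TATAAA 239 bases before the start. A second RefSeq start of IL1A, with the window chr2:112784401-112784650, had the same TGACTCA at 105 bases and TGAGTCA at 55. No match was in the IL1B window. Among 35116 promoter windows of that length, 54.4% held the NF-kB pattern, 6.57% TGANTCA, 1.65% TGACGTCA and 10.7% TATAAA. A match in letters is a description and not a binding site.

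Across all 30 arrays, the genes most like IL1A among the 14195 compared were CCL20 (Pearson r = 0.892), IL1B (0.879), IL6 (0.852), MYC (0.823) and DUSP6 (0.814). Those most like IL1B were IL1A (0.879), CCL20 (0.871), SH3RF3-AS1 (0.861, on 29 arrays), ZFAND5 (0.842) and CXCL1 (0.840). CCL20, CXCL1 and IL6 encode secreted chemokines and a cytokine of epithelial inflammation. The Spearman correlation of IL1A with IL1B was 0.849. The arrays share slides, times and exposures, so that these are descriptions with no p. IL18, IL1R1 and IL1RAP ranked 516, 5685 and 7443 in likeness to IL1A.

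IL18 encodes an interferon-inducing cytokine stored by epithelia. It was bright at every time and lowest at 24 h. In air its arrays lay between 1.21 and 1.59 at 10 min to 6h50 min and between 0.93 and 1.09 at 24 h. In pollen they lay between 1.16 and 1.68 at the first 4 times, and at 0.76, 0.97 and 0.73 at 24 h. All 24 h arrays were below all earlier arrays in both exposures. The contrast with 10 min was -0.45 in air and -0.55 in pollen at 24 h, and the F tests passed in air (adjusted p = 0.00328, limma) and in pollen (adjusted p = 2.67e-05, limma). Between exposures the difference at 24 h was -0.21 ± 0.09 (SE, n = 3 per group), with an unadjusted p of 0.0393 and an adjusted p of 1.00 in limma, and lower in pollen in 3 of 3 pairs, with air replicate 1 below pollen replicate 2. At the other times it lay between -0.11 and 0.15.

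IL1RN, the receptor antagonist, had a dim probe. At 24 h air was at -5.68, -5.33 and -5.40, and pollen at -5.37, -5.08 and -5.32. Over all 5 times the difference lay between -0.36 ± 0.29 (SE, n = 3 per group) at 55 min and 0.21 at 24 h. The value of 55 min came with pollen replicate 1, the array of another design, at -6.01 against -4.85 and -4.80 in the other pollen arrays. At 6h50 min pollen replicate 2 was at -6.31 and not detected. The second probe of the gene, chr2:113891531-113891590, disagreed with the first in sign at 3 of 5 times. At 6h50 min it gave 1.03 ± 0.45 (SE, n = 3 per group; unadjusted p = 0.0320, adjusted p = 0.597, limma) against -0.27 at the first probe, with air at -4.93, -6.90 and -6.56 and pollen at -4.77, -5.15 and -5.38. It was not detected on any air array at 24 h, where air at 10 min was at least 3.42-fold higher. In these bounds the dim group stands at the higher of its own signal and the lowest detected signal of the array. No direction held for the antagonist across its probes at 55 min, 2h25 min and 6h50 min.

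Of the receptors, IL1R1 encodes the signalling receptor of IL-1. Its brighter probe lay between -4.31 and -2.92 over the 30 arrays, and the differences between exposures lay between 0.02 and 0.20 with an SE of 0.21 (n = 3 per group). The F test over the times passed neither in air (adjusted p = 0.0935, limma) nor in pollen (adjusted p = 0.283, limma). Its second probe was detected on 27 of 30 arrays, between -6.92 and -4.94. It passed the F test in air (adjusted p = 0.0160, limma) and in pollen (adjusted p = 0.00445, limma). At 6h50 min it was detected on 2 of 3 arrays in each exposure. Against the first time, both probes were lower in air at 6h50 min and 24 h. The brighter probe gave -0.54 and -0.55 there, and the second -0.86 and -0.42. In pollen both were lower at 55 min (-0.13 and -0.23) and 6h50 min (-0.37 and -0.99). The signs of the probes differed in air at 55 min and 2h25 min, and in pollen at 2h25 min and 24 h. Between exposures the second probe gave 0.51 at 24 h and -0.34 at 55 min, and neither difference passed the test.

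IL1RAP encodes the accessory chain that IL1R1 and the receptors of IL-33 and IL-36 share, and a shorter transcript encodes a soluble form that lacks the membrane anchor. At the full-length probe, air measured -0.05, 0.11 and -0.12 at 10 min, and 0.72, 0.65 and 0.93 at 24 h. The contrast of air with its 10 min arrays was 0.06 at 55 min, 0.21 at 2h25 min, 0.65 at 6h50 min and 0.79 at 24 h, and the F test passed in air (adjusted p = 2.44e-05, limma) and pollen (adjusted p = 0.000127, limma). The soluble form's probe had other contrasts in air, -0.17, 0.24, 0.41 and -0.20. Both probes were higher at 6h50 min than at 10 min. By group mean the full-length probe was highest at 24 h in both exposures, but in pollen only at 0.57 against 0.55 at 2h25 min. Its highest single pollen array, at 0.91, was of 2h25 min. The air arrays of the soluble form's probe at 24 h overlapped those of 10 min, and its pollen arrays, at -2.50, -2.53 and -2.45, were below those of 10 min, at -2.41, -2.19 and -2.01. The F test passed for that probe too (adjusted p = 0.00785 in air and 0.000758 in pollen, limma). A difference between the probes was not tested. Another IL1RAP probe, chr3:190374908-190374967, was detected on 0 of the 29 arrays that held it.

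**Figure D3:**
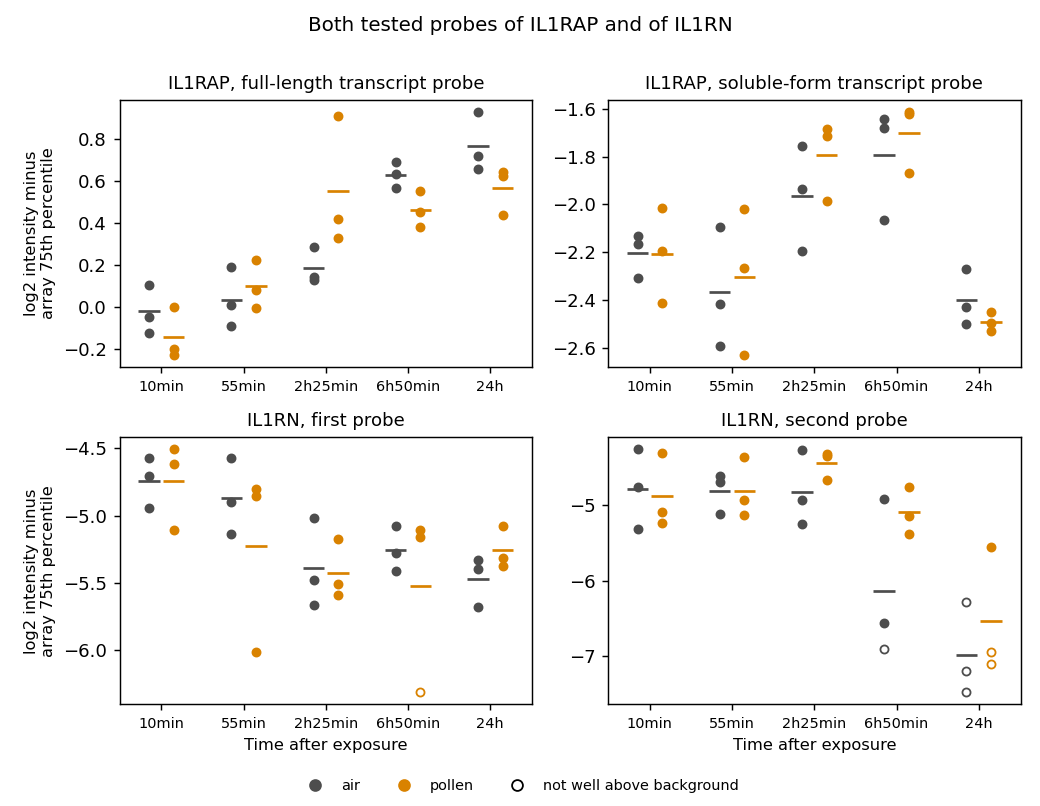
Log2 intensity minus the array's 75th percentile at both tested probes of IL1RAP and of IL1RN, with 1 point per array, 3 arrays per group and a bar at the mean, for air and pollen by time. The full-length IL1RAP probe is at 0.65 to 0.93 in air at 24 h, above its 10 min arrays, and the soluble form's probe at -2.50 to -2.27, overlapping its own 10 min arrays.

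Between exposures, full-length IL1RAP in pollen at 2h25 min was at 0.91, 0.42 and 0.33, against 0.28, 0.13 and 0.14 in air. The difference was 0.37 ± 0.12 (SE, n = 3 per group; unadjusted p = 0.00725, adjusted p = 1.00, limma), with pollen replicate 1 well above the other arrays. At 6h50 min pollen was at 0.45, 0.38 and 0.55 and air at 0.69, 0.57 and 0.63. At 24 h pollen was at 0.44, 0.62 and 0.64 and air at 0.72, 0.65 and 0.93. Pollen thus lay below air on every array at both later times, with differences of -0.17 and -0.20 that did not pass the test (adjusted p = 0.911 and 1.00, limma). Among all probes, 5.21% at 6h50 min and 3.47% at 24 h lay so. At the soluble form's probe the groups overlapped at every time, with differences between -0.09 and 0.17.

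Other genes of the pathway were taken from lists written with earlier results of these data known. In the limma fit without a block, no gene of these lists was called at any time. The list of epithelial genes that IL-1 is known to induce had 25 genes, 23 of them tested. CSF2 and PTGS2 passed the filter only through pollen at 2h25 min, and CSF3 and CXCL8 were not detected on some arrays, so the counts that follow are over the 19 genes detected on all 30 arrays. Of these, 6 were higher in pollen at 10 min, 15 at 55 min, 19 at 2h25 min, 19 at 6h50 min and 18 at 24 h, where among all probes tested 51.9%, 48.5%, 41.6%, 50.2% and 49.1% were. The median log2 difference was -0.04, 0.28, 0.54, 0.35 and 0.18, against medians of all probes between -0.03 and 0.01. The list holds genes that the paper reports as raised by pollen in these data, among them IL6, CXCL2, TNFAIP3, NFKBIZ and ICAM1. These counts and medians are thus descriptions. With scaling on each array's own probes the median of all probes at 55 min was -0.37, a shift larger than the list's median at that time. At the other times that median lay between -0.024 and -4.6e-05. Pollen 55 min replicate 1, of the other array design, had an own 75th percentile of 861, against 280 to 464 on the other 55 min arrays. Its part in the shift was not tested. At an unadjusted p under 0.05, 0, 7, 8, 4 and 1 of the 19 were higher and 1 was lower, TRAF1 at 10 min. IL-1 is not the only inducer of these genes, and whether it acted here was not measured. Beside this, the 9 epithelial markers had median differences of 0.17 at 6h50 min and 0.20 at 24 h, with 9 and 7 of them higher in pollen. The 5 tested leukocyte markers had 0.19 and 0.09, with 4 and 3 higher, the 4 tested fibroblast markers -0.22 and 0.20, with 1 and 4 higher, and the 2 tested endothelial markers -0.22 and -0.41, with 0 higher. At 55 min and 2h25 min the epithelial medians were -0.05 and 0.05, with 4 and 7 higher. Those of leukocytes were -0.32 and 0.06, with 1 and 3 higher. Fibroblast markers had 0.06 and 0.00067, with 3 and 2 higher, and endothelial markers -0.39 and -0.29, with 0 and 1 higher. The 1 tested mast cell marker was at -0.27, -0.23, 0.04 and -0.07 from 55 min to 24 h. None was called, and their part in the result was not tested. A changed share of cells and a changed amount of RNA per cell cannot be told apart in such cultures.

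At 55 min the largest differences in that list were 1.61 for CXCL2, a neutrophil chemokine (unadjusted p = 0.00305, limma), and 1.36 for IL6 (unadjusted p = 0.0173, limma). At 2h25 min they were 2.74 for CSF2, which encodes GM-CSF, and 1.82 for CSF3, which encodes G-CSF. CSF2 was detected on 7 of 30 arrays, at this time on 1 of 3 in air and 3 of 3 in pollen, the group that let it pass the filter, so that its difference is a description. At 6h50 min CSF3 was at 1.97, detected on 1 of 3 air arrays, and the neutrophil chemokine CXCL8 at 1.20. At 24 h CCL20, a chemokine for dendritic and T cells, was at 0.85, and PTGS2 was not detected on any of the 6 arrays. At 10 min the largest were -0.35 for TRAF1 and -0.29 for SOD2. The adjusted p of every one of the genes named here was above the threshold, and the smallest of the whole list was 0.269, at 6h50 min.

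**Figure D4:**
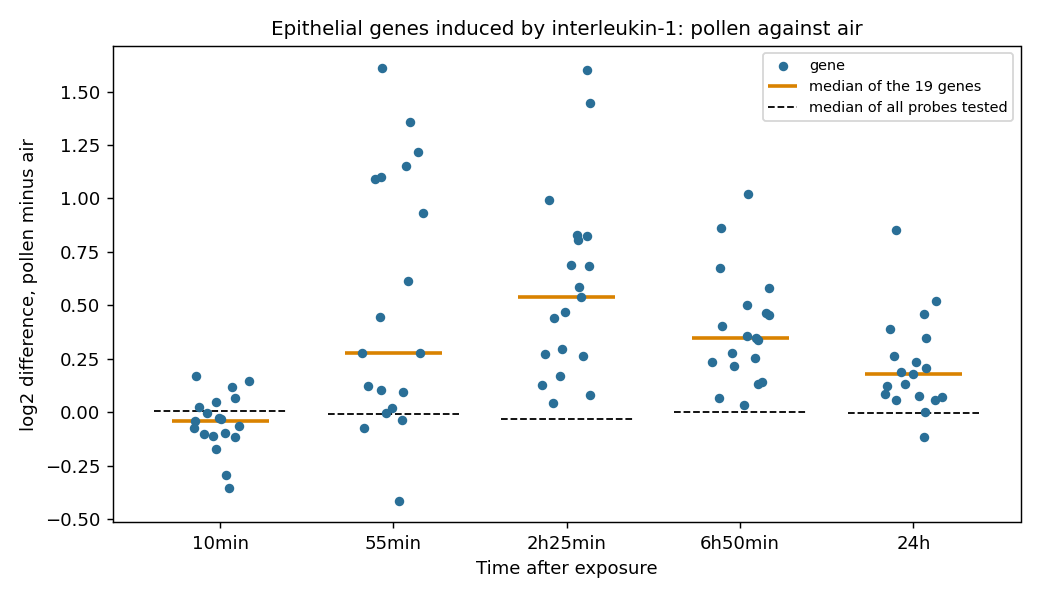
Log2 difference, pollen minus air, of the 19 epithelial genes known to be induced by IL-1 that were detected on all 30 arrays, with 1 point per gene at each time after exposure, each the limma estimate from 3 arrays per group. The solid bar is their median and the dashed line that of all probes tested. The list was written with earlier results of these data known. The points lie around 0 at 10 min and all lie above 0 at 2h25 min and 6h50 min, and none was called.

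The 21 signalling genes were all tested. Their median differences lay between -0.03 and 0.07, near the medians of all probes. NFKBIA, the inhibitor of NF-kB and itself one of its targets, was at 0.62 at 55 min (unadjusted p = 0.00747, limma), and IRAK2, a kinase of the receptor complex, at 0.36. At 2h25 min NFKB1 was at 0.48 (unadjusted p = 0.000689, adjusted p = 0.471, limma) and IRAK2 at 0.45. At 10 min TAB1 at 0.15 and PELI2 at -0.15 were the largest, at 6h50 min PELI2 at -0.27 and TRAF6 at -0.26, and at 24 h IRAK2 at -0.20 and IRAK4 at 0.18.

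Of the 22 genes of processing and release, 17 were tested. The inflammasome sensors AIM2 and NLRP10 and the caspase-1 inhibitor CARD18 were detected on 0 arrays, NLRP3 on 2, NLRC4 on 1 and NLRP1 on 17. CASP1, which encodes caspase-1, was detected on all 30, with differences between -0.07 and 0.12. The list's medians lay between -0.05 and 0.05. The 2 largest differences were MEFV at 0.37 and CAPN1 at 0.20 at 10 min, CARD17 at -0.85 and NLRP1 at -0.82 at 55 min, MEFV at -0.25 and CASP8 at 0.23 at 2h25 min, CASP4 at 0.21 and CASP5 at 0.18 at 6h50 min, and NLRP1 at -0.64 and P2RX7 at 0.47 at 24 h. None passed the test.

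Of 12 other family members and receptors, 8 were tested and IL18BP, IL18RAP and SIGIRR were detected on all arrays. IL33, an alarmin of epithelia, was detected on 13 of 30 arrays and passed the filter only through pollen at 10 min, so that its value there is a description. At 10 min it was detected on 1 of 3 air arrays and 3 of 3 pollen arrays, with a difference of 1.43 ± 0.57 (SE, n = 3 per group). At 55 min it was detected on 1 air array and no pollen array. IL18RAP, a chain of the IL-18 receptor, was at -0.95 at 55 min, and IL37 at 0.72 at 2h25 min, and neither was called. IL1RL2, the IL-36 receptor, was detected on 6 of 30 arrays and passed the filter through air at 55 min alone, so that its values are a description. It was at 0.43 at 10 min, at least 1.06-fold lower in pollen at 55 min and at least 1.19-fold higher at 2h25 min. It was not detected on any array of 6h50 min or 24 h. IL1RAPL1, an accessory protein known from neurons, was not detected at 6h50 min either, and at 24 h it was detected on 1 air array and no pollen array.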

How the data were processed

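Spot intensities of 30 one-colour Agilent arrays (Cy3), of which 29 were of one design with 58201 probes and 1 of another with 42405, were deposited as Feature Extraction 11.0.1.1 output, in which per the file headers background had been subtracted and a multiplicative trend removed on each array, with arrays not yet scaled to one another. A deposited table of log2 values, made by the authors, served only as an alternative; its columns had like quantiles, 29 of 30 followed the signals of an array of the labelled group (the 6 columns of 24 h were each most like another array of that group), and its scaling is not stated further. Labels gave exposure, time and replicate.

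Control spots and outlier spots were left out, spots of a probe averaged, and log2 intensity was set against the array's 75th percentile, taken over the 33873 probes that every array held. Tests covered the 32099 probes that were well above background throughout some group of 3 arrays. Group means of all 30 arrays were fitted with limma 3.58.1 in R 4.3.3 (20 residual and 2.35 prior degrees of freedom), with Benjamini-Hochberg adjustment over all probes. The pipeline was tested on simulated data. Where a gene had several probes, the brightest by mean stands for it, and the others are given beside it in the account of that gene. Every member is named. Of each list the genes called are named, with the 2 of the largest absolute difference at each time, and other genes named were chosen after their values were seen. The members and lists were chosen with earlier results of these data known. The number of arrays limits the precision. Areas of low signal on air 6h50 min replicates 1 and 2 held no tested member probe.

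Same-numbered arrays of both exposures deviated together at 10 min (correlations 0.296 to 0.310), 2h25 min (0.376 to 0.504) and 24 h (0.193 to 0.420), so that the numbers were taken as paired there. At 55 min (-0.119 to 0.348) and 6h50 min (0.053 to 0.089) they were not. At 6h50 min each air array still correlated best with the pollen array of its own number. The paper states that exposed cells always had a mock control from the same run, but the labels do not give the run. Alternatives were the background correction, the scaling, the filter, array weights, blocks for replicate and slide, the arrays of 1 time alone, the deposited table, the other probes of a gene, areas of low signal left out and each array left out.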

Additional observations from a re-analysis of the deposited data

How the results depend on the processing

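The count of 0 members called at 2h25 min (11 of 32099 probes) became 1, IL1B, with normexp and quantile normalization (log2 difference 0.99, 22 probes called), the median in place of the 75th percentile (1.26, 14 probes), the replicate block (1.19, adjusted p = 0.00957, limma, 44 probes), the slide as a block (1.19, 23 probes) and the deposited value table (1.08, 22 probes), and over the arrays left out it ran from 0 to 1. At the other settings the adjusted p of IL1B there ran from 0.0725 to 1.00. With array weights the count at 55 min was 2, with 231 probes called against 1, and that in air over the 5 times 5, with 25083 probes against 19884. At 6h50 min, where 14 probes were called, 304 were with normexp, 386 in the deposited table, 135 with the replicate block and 530 with array weights, with 0 members among them. Leaving out each array, the count of members called in air over the 5 times ran from 3 to 5. The 5 came without air 10 min replicate 1 and without pollen 55 min replicate 1. That count was 2, IL1B and IL1RAP, with the median and with each array's own percentile, and the count in pollen ran from 4 to 5 over all settings. The replicate block, which also paired arrays at 55 min and 6h50 min, changed no other call of a member. The blocks for replicate and slide gave no test over the times within an exposure, while that of the pollen effect called 0 members under both. With each array's own probes for the percentile, the median of all probes at 55 min was -0.37, IL1A and IL1B were at 0.31 and 0.37, and IL18 (-0.41), IL1R1 (-0.33) and IL1RAP (-0.35) turned negative. Differences near 0 also changed sign. IL1R1 did so at 10 min (-0.025 with normexp, -0.019 with the median, -0.013 in the deposited table, -0.034 at the other probe), at 55 min (-0.033 within slide 2 and with the slide block, -0.34 at the other probe), at 2h25 min (-0.057 within slide 4) and at 6h50 min (-0.16 at the other probe). IL1RN did so at 10 min (0.020 with array weights), at 55 min (0.18 with array weights, 0.19 within slide 2 and with the slide block, 0.018 in the deposited table, 0.00038 at the other probe), at 2h25 min (0.0053 with normexp, 0.028 with the median, 0.19 within slide 2, 0.020 in the deposited table, 0.37 at the other probe) and at 6h50 min (1.03 at the other probe). IL1RAP did so at 55 min (-0.033 with array weights) and 6h50 min (0.094 at the other probe), and IL1A at 24 h (-0.14 with array weights). With single arrays left out, sign changes were seen for IL1A at 10 min (-0.40 to 0.053), 24 h (-0.016 to 0.22), IL1RN at 10 min (-0.12 to 0.18), 55 min (-0.57 to 0.038), 2h25 min (-0.17 to 0.15), 6h50 min (-0.48 to 0.12), IL1R1 at 10 min (-0.16 to 0.20), 55 min (-0.022 to 0.14), 2h25 min (-0.051 to 0.13), 24 h (-0.091 to 0.43), IL18 at 55 min (-0.060 to 0.037), 6h50 min (-0.066 to 0.020), all uncalled values. The differences of IL1B at 55 min, 2h25 min, 6h50 min and 24 h and of IL1A at 55 min, 2h25 min and 6h50 min stayed positive at all settings run. The cause of these changes, beyond the smaller number of arrays where some were left out, was not tested. The genes near background, IL36G, IL36B, IL1RL1 and IL1R2, were not compared, since their signal was not well above it.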
